A study of Mus musculus with 2 samples.

Results

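Carbonic anhydrases were counted for 16 of the 19465 genes in these sections of mouse femur, and 8 of them are described here: *Car1*, *Car2*, *Car3*, *Car4*, *Car8*, *Car9*, *Car12* and *Car14*. They were selected on measured values, namely their UMIs (unique molecular identifiers, each standing for 1 captured transcript) in the tissues of both sections and the differences between the sections. Those values are therefore descriptions, and no test is attached to them.

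Carbonic anhydrases interconvert carbon dioxide and bicarbonate, releasing or taking up a proton. Cytosolic forms serve gas transport in red cells (*Car1* and *Car2*), acid secretion by osteoclasts (*Car2*), and muscle and fat (*Car3*), while *Car4*, *Car9*, *Car12* and *Car14* act at the cell surface. *Car8* is a relative that lacks the catalytic activity. In bone, acid from osteoclasts dissolves mineral, and mineral deposition by osteoblasts releases protons.

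Gene expression was measured with the Visium assay for formalin-fixed tissue, which captures gene-specific probe pairs on a slide with a grid of spots, each with its own barcode. Both sections came from female bone cell reporter (BCR) mice, which carry fluorescent labels at *Ibsp* and *Acp5*, and each mouse had a mid-diaphyseal femoral defect (0.68 mm on average over the mice operated on) held by an external fixator, created at 12 weeks of age. The Control mouse was sham-loaded and the Loaded mouse received cyclic mechanical loading through the fixator from week 3, and both were euthanized at week 5, at 17 weeks of age. There was 1 section of 1 mouse per group, so every difference between the sections is a difference between these mice as well, and loading and mouse cannot be told apart.

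The Control section held 9002147 UMIs in 1962 spots and the Loaded section 4910716 UMIs in 1436 spots. Spots were placed in 4 classes. Bone spots are those that the study outlined between the inner pins (131 in Control with 557259 UMIs, 146 in Loaded with 409020). Muscle-rich spots lie outside bone and have at least 10% of their UMIs in 22 skeletal muscle genes (1023 and 707 spots). Marrow-rich spots are neither and have at least 5% in erythroid and granulocyte genes (430 and 436), and the remainder are called other spots (314 and 142). No carbonic anhydrase is in a list that makes the classes. Muscle-rich spots had 34.5% of UMIs in the muscle list in Control and 25.0% in Loaded. Marrow-rich spots had 14.4% and 12.0% in the 9 erythroid genes found, and 0.463% and 0.894% in the 10 granulocyte genes. These lists define the 2 classes, so the shares describe the spots and do not check the classes. Bone spots were mixed tissue: the muscle list held 15.9% (Control) and 8.39% (Loaded) of their UMIs, while 10 osteoblast genes held 2.02% and 6.56%. All osteoblast genes but *Smpd3*, which had no UMI in Control bone, were detected in both bone regions, as were all 9 osteoclast genes. *Ibsp* and *Acp5*, the reporter loci of both mice, are among these markers. The sections share 557 spot barcodes, which are positions on the slide and not cells. A spot holds several cells, so that fewer cells of a type and less RNA per cell cannot be told apart.

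The genes differed in the tissue class where their level was highest. Levels are UMIs per 10000 UMIs of a class, with exact Poisson 95% intervals that cover counting error only. They are compared between classes and sections for 1 gene at a time, because probes of different genes are captured with different efficiency. Over both sections, 4 of the 8 genes were highest in marrow-rich spots (*Car1*, *Car2*, *Car8* and *Car9*), where 25.8% of 13490 genes with enough UMIs were also highest in both sections. The 3 genes *Car3*, *Car4* and *Car14* were highest in muscle-rich spots, against 7.91% of all genes. None was highest in bone in both sections (3.54% of all genes) or in other spots in both (21.7%). *Car12* differed between the sections, being highest in other spots in Control and in bone in Loaded. For *Car4*, *Car8* and *Car9* the highest class was not separated from the next by more than counting error.

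**Figure D1:**
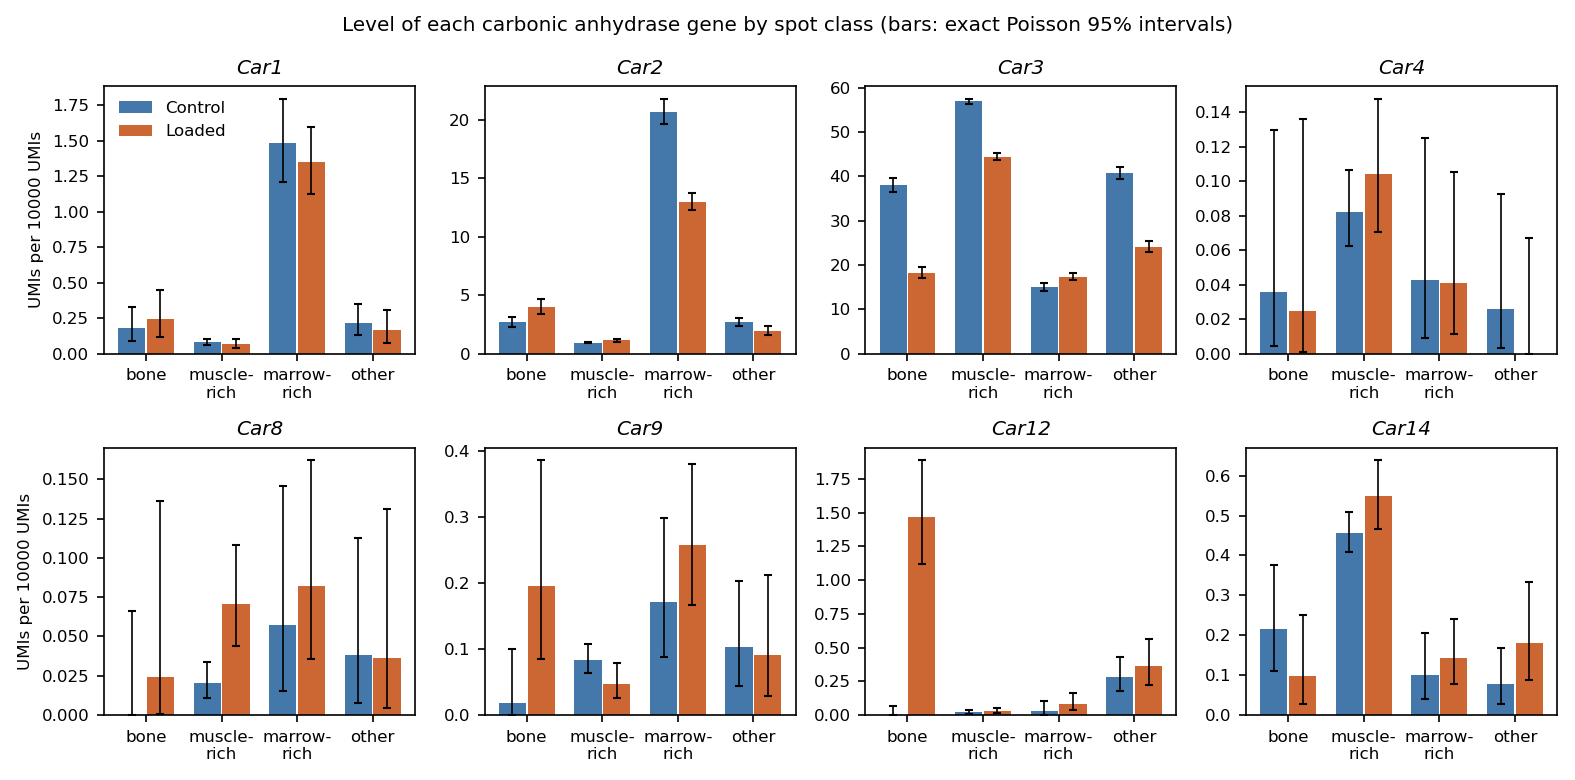
UMIs per 10000 UMIs (y axis, starting at 0) of each carbonic anhydrase gene in bone, muscle-rich, marrow-rich and other spots (x axis) of the Control (blue) and Loaded (orange) section, with exact Poisson 95% intervals as bars. *Car2* peaks in marrow-rich spots of both sections at 20.7 and 13.0, while *Car12* is at 0 in Control bone and at 1.47 in Loaded bone.

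*Car1* and *Car2*, the red cell forms, lie with *Car3* and *Car13* in a stretch of 259 kb on chromosome 3 (14641727 to 14900770, GRCm38). *Car1* had 188 UMIs in the Control and 170 in the Loaded section. Its level in marrow-rich spots was 1.48 (interval 1.21 to 1.79) in Control and 1.35 (1.13 to 1.60) in Loaded, 6.80-fold and 5.51-fold above the next class. In each bone region it had 10 UMIs. The sections did not differ beyond counting error in *Car1* in any class, with log2 ratios of Loaded over Control between -0.42 and 0.33.

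*Car2* (chromosome 3, 14886273 to 14900770, plus strand), which is also the osteoclast form, had 2465 and 1870 UMIs in the Control and Loaded section. Of those in the 4 classes, 59.2% and 67.5% were in marrow-rich spots. There, its level was 20.7 (19.7 to 21.8) in Control and 13.0 (12.3 to 13.7) in Loaded, a log2 ratio of -0.67 (-0.78 to -0.56). The bone level was 2.67 (2.26 to 3.14) in Control and 4.01 (3.42 to 4.67) in Loaded. Marrow-rich spots thus exceeded bone spots 7.74-fold in Control and 3.24-fold in Loaded. In Control, bone and other spots (2.67 in each) did not differ beyond counting error, whereas in Loaded bone was 2.07-fold above other spots (1.61 to 2.66).

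Within bone, *Car2* was higher in spots rich in erythroid genes, while spots ranked by osteoclast genes did not differ beyond counting error. In the 43 Control bone spots with the highest erythroid share *Car2* was at 5.72, against 1.29 in the 43 spots with the lowest, a 4.43-fold difference (log2 2.15, interval 1.54 to 2.77). In Loaded bone, the 48 spots with the highest share were at 5.64 and the 48 with the lowest at 2.11, a 2.67-fold difference (log2 1.42, 0.82 to 2.03). Spots ranked by the 9 osteoclast genes, which include *Ctsk* and *Acp5*, differed by 1.21-fold in Control (log2 0.28, -0.30 to 0.87) and 1.09-fold in Loaded (log2 0.12, -0.44 to 0.70), and both intervals include 0. The osteoclast share of those spots was 0.933% against 0.0918% in Control and 0.865% against 0.118% in Loaded, a gap that follows from the ranking. The intervals still allow a higher *Car2* in osteoclast-rich spots, by up to 0.87 on the log2 scale in Control. In marrow-rich spots, *Car2* was 1.55-fold higher in the 143 Control spots with the highest erythroid share and 1.49-fold higher in the corresponding 145 Loaded spots, and granulocyte shares gave 1.11-fold and 1.05-fold with intervals that include 0.

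**Figure D2:**
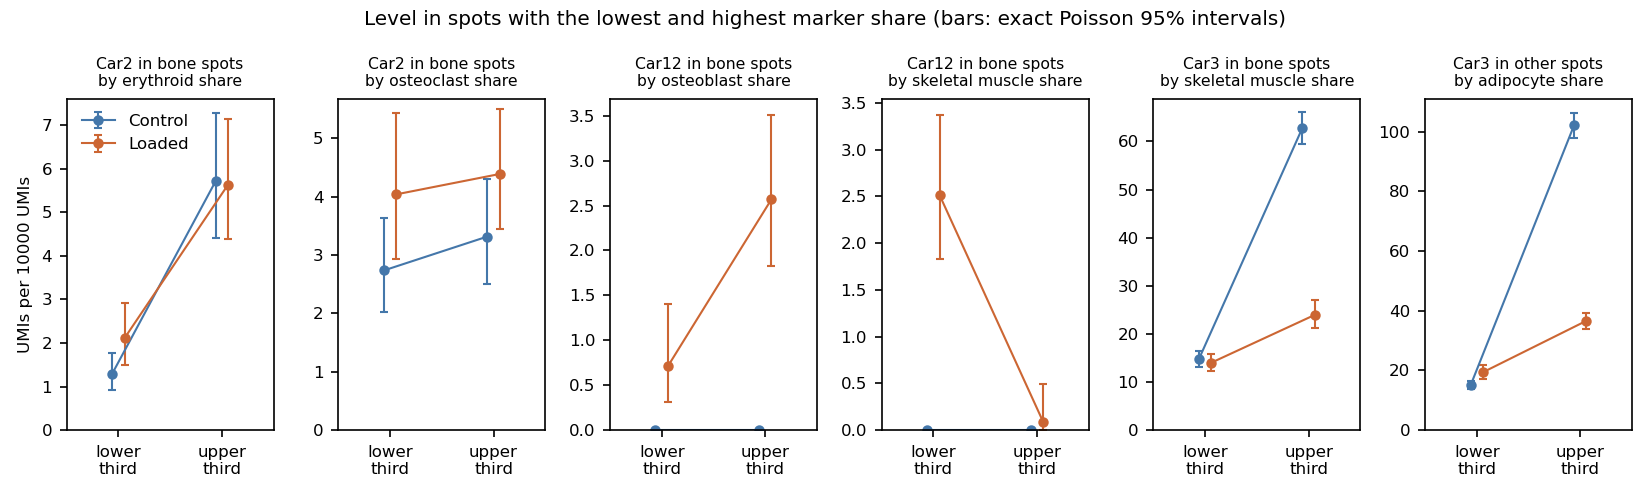
Level in UMIs per 10000 UMIs (y axes, starting at 0) in the spots with the lowest and the highest share of a marker list (x axis; equal numbers of spots at either end of the ranking in each section), for Control (blue) and Loaded (orange), with exact Poisson 95% intervals (none drawn for *Car12* at 0 in Control). *Car2* differs by erythroid share (1.29 against 5.72 in Control) and little by osteoclast share, *Car12* in Loaded bone is high with the osteoblast share and low with the muscle share, and *Car3* is high with the muscle share in bone and with the adipocyte share in other spots.

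The genes whose distribution over the sections was most like that of *Car2* were *Hist4h4*, *Hist1h1b* and *Hist2h2bb*, which encode replication-dependent histones. Over 68 Control and 48 Loaded tiles of 6 by 6 spots, their Pearson correlations with *Car2* were 0.97 in Control and 0.96 in Loaded. With tiles of 4 by 4 spots, *Hist2h2bb* stayed among the 3 most alike, with *Hist1h1d* and *Dmtn*, a red cell membrane protein gene, in place of the others. The tiles share the section and its mixture of marrow and muscle, so the correlations are descriptions.

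In bone, Loaded over Control, *Car2* had 149 UMIs in Control and 164 in Loaded, or 0.967 and 1.34 normalized UMIs per spot after division by scran size factors (154 and 123 in sum). This is a log2 ratio of +0.47 (interval 0.14 to 0.80). In bone spots with a muscle share below 5%, 16 in Control and 25 in Loaded, *Car2* was at 0.626 and 1.36 (18 and 48 UMIs), a larger log2 ratio of +1.12. To show the spread within a section, each bone region was cut into top left, top right, bottom left and bottom right blocks. Their *Car2* levels were 1.24, 1.14, 1.08 and 0.516 in Control and 1.24, 1.30, 0.876 and 1.84 in Loaded. The blocks overlapped. Leaving out 1 block at a time gave ratios from 0.24 to 0.58. The erythroid list was higher in the Loaded bone region too, at 3.04% against 2.46% of UMIs, and per 1000 erythroid UMIs *Car2* was at 10.8 (9.18 to 12.7) in Control and 13.2 (11.3 to 15.4) in Loaded. In other spots *Car2* was lower in Loaded (log2 -0.46, -0.81 to -0.12), but the ratio was -0.04 with a marrow limit of 10% and -1.05 with a muscle limit of 20%. In muscle-rich spots it was higher (+0.28, 0.09 to 0.47), which turned to -0.15 with scran size factors over all spots.

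*Car3* (chromosome 3, 14863512 to 14872523, plus strand), abundant in slow muscle fibres and fat cells, made up 93.5% of the UMIs of the 8 genes in Control and 87.4% in Loaded, with 45956 and 17000 UMIs. In muscle-rich spots it was at 57.0 (56.4 to 57.5) in Control and 44.5 (43.7 to 45.2) in Loaded, 1.40-fold and 1.84-fold above other spots, the next class. Bone followed at 38.1 and 18.3, and marrow-rich spots were at 14.9 and 17.4. Bone and marrow-rich spots of the Loaded section did not differ beyond counting error. With a muscle limit of 5%, the order changed in Control, where other spots were then highest.

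Among muscle-rich spots, *Car3* differed little by the share of 7 slow fibre genes. Spots with the highest share were 1.14-fold above those with the lowest in Control (341 spots each) and 1.20-fold in Loaded (235 each). The slow fibre share was 0.766% against 0.00402% in Control and 3.45% against 0.0636% in Loaded. Even the higher shares are small beside the 34.5% and 25.0% of UMIs in the muscle list. The ranking therefore cannot compare slow with fast fibres. *Car3* differed more by the adipocyte list (6 genes, among them *Adipoq* and *Plin1*) within other spots, a comparison added after the values were seen. There, *Car3* stood at 102 in the 104 Control spots with the highest adipocyte share and 14.9 in the 104 with the lowest, 6.84-fold (log2 2.77, 2.63 to 2.92). In Loaded the values were 36.6 and 19.4 (47 spots each), 1.89-fold (log2 0.92, 0.72 to 1.12). The lowest spots of both sections held no adipocyte UMI. In Loaded, the 71 spots ranked lowest all had none, so the lowest 47 were drawn from ties by their order in the data. Split at the median, which also cuts through ties, the Loaded difference was 1.66-fold (log2 0.73, 0.56 to 0.91). The adipocyte list held 0.391% of UMIs in Control other spots and 0.0803% in Loaded other spots, and its part in the *Car3* difference between the sections in these spots (log2 -0.75) was not tested. With a muscle limit of 5% that difference was -2.18. Per 1000 UMIs of the muscle list, *Car3* was at 16.5 and 17.8 in muscle-rich spots and at 80.9 (78.1 to 83.8) and 36.4 (34.4 to 38.4) in other spots of Control and Loaded.

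In the bone region *Car3* had 2121 UMIs in Control and 747 in Loaded, or 13.8 and 6.08 normalized UMIs per spot, a log2 ratio of -1.18 (-1.30 to -1.06). Its blocks were at 17.0, 4.93, 23.6 and 8.02 in Control (top left, top right, bottom left, bottom right) and at 5.01, 6.07, 6.88 and 6.87 in Loaded. The Control blocks spanned a wide range that included all Loaded blocks. Their muscle shares were 19.9%, 6.12%, 25.1% and 8.27%, in the same order as *Car3*. Without the bottom left Control block the ratio was -0.46. Single spots showed the same pattern, with *Car3* at 62.8 per 10000 in the 43 Control bone spots richest in muscle genes and 14.7 in the 43 poorest, and at 23.9 and 14.0 in the 48 and 48 Loaded spots. Per 1000 muscle UMIs, *Car3* in bone was at 24.0 (23.0 to 25.0) in Control and 21.8 (20.2 to 23.4) in Loaded, a log2 difference of -0.14. In the bone spots with a muscle share below 5% the direction reversed, with 2.57 normalized UMIs per spot in Control and 4.09 in Loaded (log2 +0.67). What part muscle content had in the difference between the bone regions was not tested.

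Genes whose distribution was most like that of *Car3* were *Acacb*, an acetyl-CoA carboxylase, *Atp5e*, a subunit of the ATP synthase, and *Pdk2*, a pyruvate dehydrogenase kinase. Their correlations over the same tiles lay between 0.69 and 0.77, weaker than those of *Car2* with its histone genes, and describe tiles that share their muscle content. With the smaller tiles only *Atp5e* stayed among the 3, beside *Slc25a4* and *Cs*, which encode mitochondrial proteins.

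**Figure D3:**
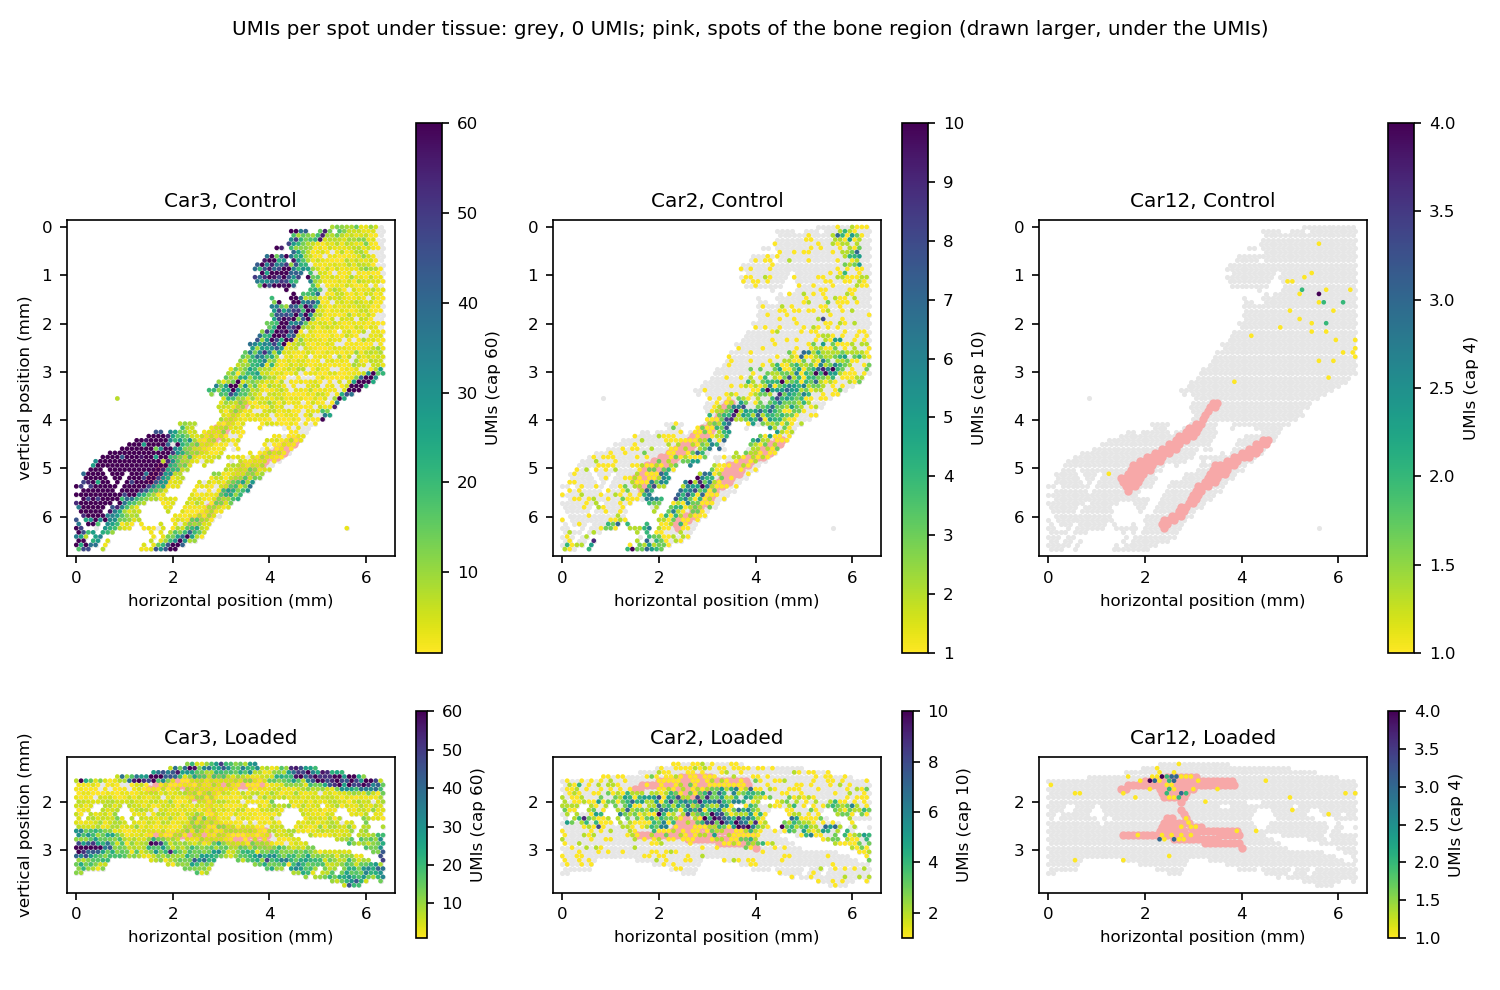
UMIs per spot (colour scale, capped at 60, 10 and 4) of *Car3*, *Car2* and *Car12* at their horizontal and vertical positions in mm in the Control (top) and Loaded (bottom) section, with spots without a UMI in grey and the bone region in pink. Most *Car3* lies in muscle-rich spots and most *Car2* in marrow-rich spots, while most *Car12* lies in and near the bone region of the Loaded section and, in the Control section, away from it.

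*Car12* (chromosome 9, 66713686 to 66766845, plus strand) encodes a membrane-bound enzyme that acts outside the cell. Its UMIs numbered 40 in the Control section and 96 in the Loaded section. In Loaded, 60 of them (62.5%) were in the bone region, in 37 spots with at most 6 UMIs each, while none of the 131 Control bone spots had any. Set against 3 UMIs in place of 0, the level was 25.1-fold higher in Loaded bone (log2 4.65). That value rests on the 3 UMIs and is not a minimum. The lower limit from counting error alone was 4.31 on the log2 scale. The Loaded blocks held 38, 6, 9 and 7 UMIs (top left, top right, bottom left, bottom right), or 0.925, 0.229, 0.376 and 0.222 normalized UMIs per spot. All of them were above the Control blocks at 0. However, the top left block held most of the signal, and without it the log2 value was 3.79. At equal depth of 1000 UMIs per spot, which left out 15 shallower Loaded bone spots, 13 of 131 Loaded bone spots had a UMI (9.92%, exact binomial interval 5.39 to 16.4). Of the Control bone spots, 0 of 131 had one, with an exact binomial upper limit of 2.78% (3 of 131 spots would be 2.29%). Muscle-rich spots, thinned in the same way, gave 0.577% and 0.751% as a background in Control and Loaded. Before thinning, their median depths were 4910 and 3429 UMIs, against 3478 and 2621 in bone. Without thinning, the share of Loaded bone spots was 25.3%.

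*Car12* was higher in osteoblast-rich spots of Loaded bone and of other spots in both sections. In Loaded bone, the 48 spots with the highest share of the osteoblast list, which includes *Bglap* and *Col1a1*, held 39 UMIs and the 48 with the lowest 8, or 2.57 against 0.711 per 10000, a 3.61-fold difference (log2 1.85, 0.74 to 3.16). By osteoclast share the counts were 33 and 8 (2.57-fold, log2 1.36, 0.22 to 2.69). The opposite held for the other tissues. Spots rich in erythroid genes had 7 UMIs against 34, and spots rich in muscle genes had 1 against 44. With spots split at the median, the counts by muscle share were 9 against 51. These rankings are not independent of each other. The top left Loaded block, with 38 of the 60 UMIs, had the highest osteoblast share (9.39%) of the 4 Loaded blocks. It also had the lowest muscle (5.14%) and erythroid (2.18%) shares. Outside bone, where the ranking was added after the values were seen, the 104 Control other spots with the highest osteoblast share held 14 of the UMIs and those with the lowest 4 (7.48-fold, log2 2.90, 1.23 to 4.96), and the 47 Loaded spots 14 and 2 (6.11-fold, log2 2.61, 0.49 to 5.79). The chondrocyte share, which reached 23.3% in single Control spots, ranked Control other spots similarly (14 against 5 UMIs, 7.63-fold). Among Loaded other spots, where chondrocyte genes made up 0.00797% of UMIs, the counts were 15 and 4 with an interval that includes 0 (log2 1.44, -0.21 to 3.49). The 71 Loaded spots ranked lowest all had no chondrocyte UMI, so the lowest 47 were drawn from ties by their order in the data.

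The UMIs of *Car12* lay at different distances from the fracture site. In Loaded, its level was 1.47 (1.12 to 1.89) in bone, 0.187 (0.113 to 0.292) in spots up to 200 µm from a bone spot, 0.0574 (0.0211 to 0.125) up to 500 µm, and 0.0451 (0.0225 to 0.0807) beyond. In Control, no UMI was counted in bone or up to 200 µm, 1 up to 500 µm, and 37 beyond. Control thus had *Car12* in the section, but away from the bone between the pins, where the osteoblast list accounted for 2.02% of UMIs against 4.09% in Control other spots. Per 1000 UMIs of the osteoblast list, *Car12* was at 0 (upper limit 0.328) in Control bone, 2.24 (1.71 to 2.88) in Loaded bone, 0.689 (0.432 to 1.04) in Control other spots and 1.02 (0.621 to 1.57) in Loaded other spots. The Control blocks had osteoblast shares of 1.33%, 4.68%, 0.590% and 2.04% (top left, top right, bottom left, bottom right), all with no *Car12*. In the same order, the Loaded blocks had shares of 9.39%, 4.06%, 7.61% and 4.26%, with 38, 6, 9 and 7 UMIs. Per osteoblast UMI the log2 value between the bone regions, with 3 UMIs in place of 0, was 3.07, against 4.65. The osteoblast list itself differed between the bone regions, at 2.02% in Control and 6.56% in Loaded. The part of osteoblast content in the *Car12* difference was not tested. Other spots did not differ between the sections beyond counting error, also per 10000 UMIs (0.282 and 0.362, log2 0.36, -0.59 to 1.30), but this ratio ranged from -0.57 with a muscle limit of 20% to 1.88 with 5%.

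**Figure D4:**
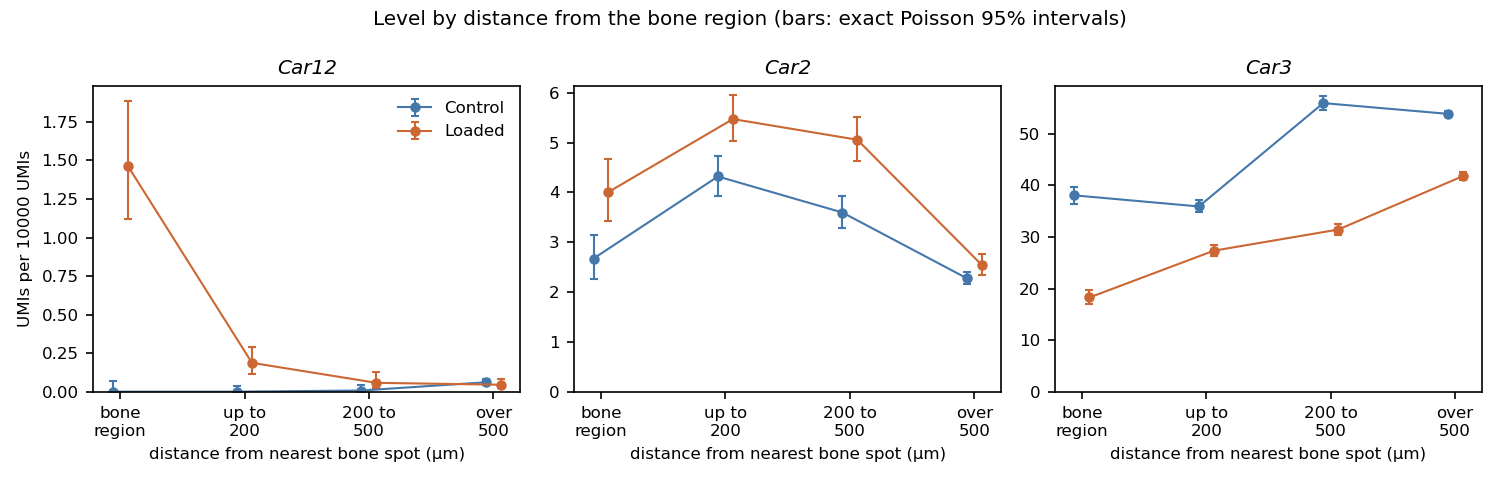
Level of *Car12*, *Car2* and *Car3* in UMIs per 10000 UMIs (y axes, starting at 0) in the bone region and in spots at up to 200, 200 to 500 and over 500 µm from the nearest bone spot (x axis), for Control (blue) and Loaded (orange), with exact Poisson 95% intervals. *Car12* falls from 1.47 in Loaded bone to 0.187 in the adjoining spots, *Car2* is higher in spots up to 200 µm from bone (4.32 and 5.47) than beyond 500 µm (2.28 and 2.55), and *Car3* is higher beyond 500 µm (53.9 and 41.8) than in bone (38.1 and 18.3).

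*Car9*, a cell-surface form known for its induction by low oxygen, was sparse, with 80 UMIs in Control and 52 in Loaded. The bone regions held 1 UMI in Control and 8 in Loaded, a log2 ratio of 3.33 with a counting interval of 0.43 to 8.80, from too few UMIs to pass the minimum of 10. The Loaded blocks held 0, 1, 3 and 4 of them, and the Control UMI lay in the top right block, so the blocks overlapped. The top left Loaded block, which held most of the *Car12*, had no *Car9*. In marrow-rich spots *Car9* had 12 and 25 UMIs, a level of 0.171 (0.0883 to 0.299) and 0.257 (0.166 to 0.379).

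Promoter sequences (250 bases before to 50 after the start, RefSeq, GRCm38.p6) were found for 4 of the 8 genes, *Car4*, *Car9*, *Car12* and *Car14*. Those of *Car12* and *Car9*, both with more UMIs in Loaded bone, are shown to place the motifs searched on both strands. Capitals mark ACCACA, the core bound by RUNX factors of osteoblasts, in *Car12* (chr9:66713436-66713735, plus strand), and the reverse complement of ACGTG, the core of the hypoxia response element, and CAGCTG, an E-box, in *Car9* (chr4:43506776-43507075, plus strand).
Car12: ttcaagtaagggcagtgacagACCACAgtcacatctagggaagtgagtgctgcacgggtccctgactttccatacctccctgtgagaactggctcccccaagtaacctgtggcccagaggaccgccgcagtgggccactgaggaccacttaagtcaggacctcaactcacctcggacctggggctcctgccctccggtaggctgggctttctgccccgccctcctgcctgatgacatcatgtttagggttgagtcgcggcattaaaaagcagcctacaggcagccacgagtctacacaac
Car9: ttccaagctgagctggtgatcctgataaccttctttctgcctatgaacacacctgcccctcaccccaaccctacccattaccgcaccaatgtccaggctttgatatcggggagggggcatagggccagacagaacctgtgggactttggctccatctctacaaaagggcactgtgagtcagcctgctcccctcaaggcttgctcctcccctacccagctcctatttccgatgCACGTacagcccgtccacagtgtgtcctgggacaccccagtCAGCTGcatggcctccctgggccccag
Relative to the start, ACCACA occurs at -229 in *Car12*, and in 16.8% of 32851 promoters. ACGTG occurs at -18 in *Car9*, at -7 in *Car14* and at 2 in *Car4*, and in 19.6% of promoters. CAGCTG occurs at 23 in *Car9*, and in 16.3% of promoters. No matches overlap. The motifs are common, and a match describes the letters only.

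*Car14* and *Car4*, cell-surface forms whose level was highest in muscle-rich spots (for *Car4* not beyond counting error), had 342 and 64 UMIs in Control and 192 and 36 in Loaded. *Car14* in muscle-rich spots was at 0.456 (0.408 to 0.510) in Control and 0.548 (0.467 to 0.639) in Loaded, 2.12-fold and 3.02-fold above the next class. Per 1000 muscle UMIs this was 0.133 (0.118 to 0.148) and 0.219 (0.187 to 0.255), intervals that do not overlap. The muscle list itself was lower in Loaded muscle-rich spots, at 25.0% of UMIs against 34.5%. Per 10000 UMIs the interval of the ratio of the sections included 0 (log2 0.26, -0.02 to 0.54). Scran size factors over all spots lowered muscle-rich ratios, that of *Car2* from 0.28 to -0.15, so the direction for *Car14* depends on the scaling. Slow fibre share did not separate *Car14* beyond counting error, with folds of 0.819 and 1.20. In bone, *Car14* had 12 Control UMIs and 4 Loaded UMIs, a log2 ratio of -1.26 with an interval that includes 0 (-3.35 to 0.46). Per 1000 muscle UMIs its bone levels were 0.136 (0.0701 to 0.237) in Control and 0.116 (0.0317 to 0.298) in Loaded, the latter from 4 UMIs. The part of muscle content in the bone values of *Car14* was not tested. *Car4* was in muscle-rich spots with 57 of its 64 Control UMIs and 31 of its 36 Loaded UMIs, a level of 0.0821 (0.0622 to 0.106) and 0.104 (0.0708 to 0.148), and bone held 2 and 1. With a muscle limit of 5%, *Car4* was highest in marrow-rich spots of both sections. In Loaded muscle-rich spots *Car4* had 16 UMIs in the spots with the highest slow fibre share and 5 in those with the lowest (log2 1.60, 0.08 to 3.40), but 16 and 13 in Control. With Loaded spots split at the median, the counts were 19 and 12, with an interval that includes 0 (log2 0.69, -0.43 to 1.87). As for *Car3*, this ranking cannot compare slow with fast fibres.

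*Car8*, the form without catalytic activity, had 22 UMIs in Control and 32 in Loaded, of which 14 and 21 were in muscle-rich spots. The level there was 0.0202 (0.0110 to 0.0338) in Control and 0.0706 (0.0437 to 0.108) in Loaded, a 3.50-fold difference (log2 1.81, 0.76 to 2.90) from few UMIs. With scran size factors over all spots that log2 ratio was 1.38. Bone held 0 and 1, so no ratio is given there.

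Across the bone regions, 5 of the 8 genes (*Car1*, *Car2*, *Car3*, *Car12* and *Car14*) had at least 10 UMIs over both sections. *Car12* was at least 2-fold higher in Loaded, as were 10.6% of 10003 genes, and *Car3* and *Car14* were at least 2-fold lower, as were 9.81%. *Car12* passed the minimum on its Loaded UMIs alone. It was the 1 gene of the 5 whose Loaded blocks all exceeded the Control blocks (4.81% of all genes), and none had all Loaded blocks below (3.14%). The log2 ratios of the 5 genes ran from -1.26 to 4.65, the value of *Car12* with 3 UMIs in place of 0. Their median of 0.33 is the value of *Car1*, from 10 UMIs in each bone region with an interval that includes 0 (-1.09 to 1.75). The median of all genes was 0.02.

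**Figure D5:**
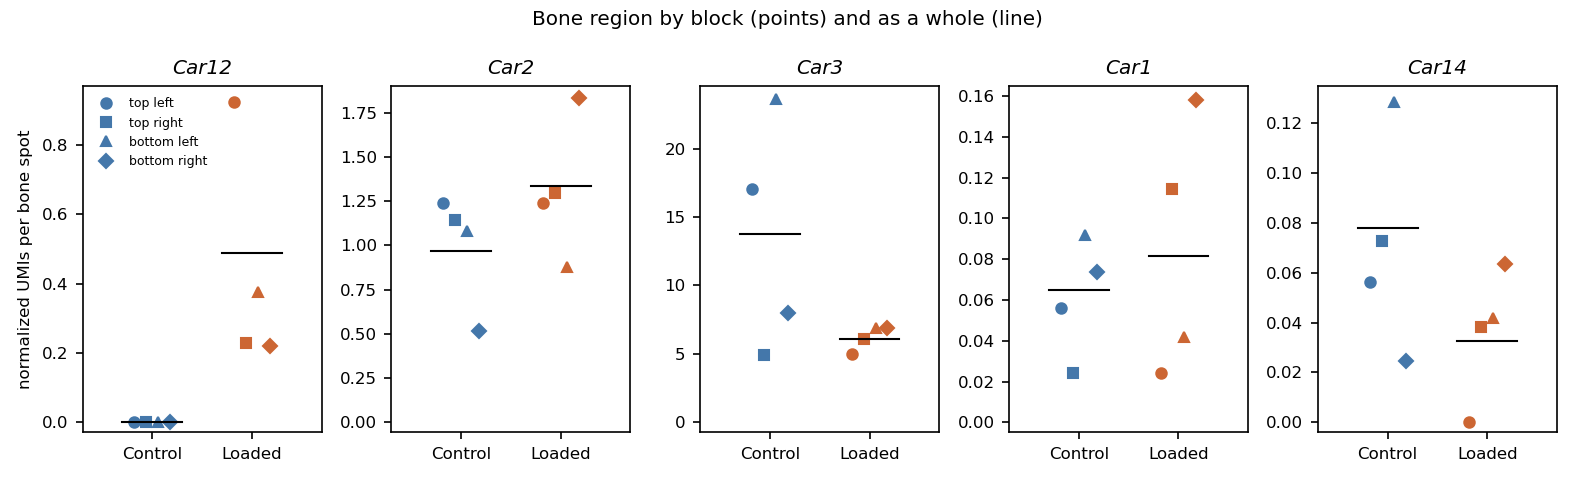
Normalized UMIs per bone spot (y axes) of *Car12*, *Car2*, *Car3*, *Car1* and *Car14* in the 4 blocks of each bone region (points, shapes by block) and in the whole region (line), for Control (blue) and Loaded (orange). The Loaded blocks of *Car12* (0.222 to 0.925) are all above the Control blocks at 0, while the blocks of the other genes overlap.

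Genes that work with carbonic anhydrases were compared in the same way. Of 18 genes of acid and bicarbonate transport, 17 were found and 15 had enough UMIs in bone. None was at least 2-fold higher in Loaded, against 10.6% of all genes, and 1 was at least 2-fold lower, against 9.81%. That gene was the lactate transporter *Slc16a3*, with 62 UMIs in Control and 19 in Loaded (log2 -1.38, -2.20 to -0.62). Its partner *Bsg* had 252 and 114 (log2 -0.82, -1.15 to -0.49), with every Loaded block below every Control block (3.14% of all genes). Both were higher in muscle-rich spots than in bone, at 2.90 and 8.45 per 10000 in Control, and lower there in Loaded, at log2 -1.34 and -0.54. The muscle list was lower in the Loaded bone region as well (15.9% and 8.39%), and its part in these differences was not tested. *Tcirg1*, a subunit of the osteoclast proton pump, had 56 and 83 UMIs (log2 0.90, 0.39 to 1.41), with overlapping blocks. Scaled by total UMIs, *Tcirg1* was also higher in Loaded muscle-rich spots (log2 0.68) and other spots (0.59), but not in marrow-rich spots (-0.08). In bone, *Atp6v0d2* (-0.05), *Atp6v1c1* (-0.01), *Atp6v1b2* (0.33), *Clcn7* (0.23) and *Ostm1* (-0.81) of the same list had intervals that include 0. Among 10 hypoxia genes, 8 had enough UMIs and none was at least 2-fold higher (10.6% of all genes). *Ndrg1* (45 against 9 UMIs, log2 -1.99, -3.21 to -0.94) was at least 2-fold lower (9.81% of all genes), with all blocks below (3.14% of all genes). It was also lower in Loaded other spots (log2 -1.07, -1.80 to -0.38), and in marrow-rich spots the interval included 0 (-0.86, -1.90 to 0.15). In muscle-rich spots, scaled by total UMIs, it was higher in Loaded (log2 0.82, 0.36 to 1.28). The medians of the transport and hypoxia genes were -0.01 and 0.01, next to 0.02 for all genes.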

How the data were processed

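UMI counts per gene and spot were deposited by the authors as raw whole numbers, without normalization, together with spot positions. They were made with Space Ranger 2.0.0, and the submitters' processing notes name mm10 and R 4.3.1. Spots with fewer than 500 UMIs or 250 genes were left out (64 in Control, 5 in Loaded). Bone spots came from the study's list of barcodes. Genes and marker lists were chosen with earlier results of these data known, and the ranking of other and marrow-rich spots and the levels per UMI of a list were added after the values were seen. UMIs in bone were summed and divided by the sum of scran 1.30.0 size factors (R 4.3.3), and in other classes by total UMIs. Ratios have exact conditional binomial 95% intervals, a sum of 0 was set to 3 UMIs, and no ratio is given where both sums are at most 3. No p-value is given, because there is 1 section per group and spots are not replicates. The authors' test on spots was not repeated. Intervals cover counting error only. Named genes are the 8 genes, transport and hypoxia genes at least 2-fold apart or singled out after their values were seen (*Bsg*, *Tcirg1* and the genes set beside *Tcirg1*), and the 3 genes most like each gene with at least 200 UMIs per section. Coordinates are GENCODE M21 (GRCm38), matched by identifier. Python 3.11.15, numpy 2.4.6, scipy 1.17.1, pandas 2.3.3 and matplotlib 3.10.9 were used, and alternatives included edgeR 4.0.16 TMM factors. The code for ratios and intervals was run on simulated Poisson counts scaled by library totals. Those counts hold no variation between spots or mice. *Atp6v1a* and *Ldha*, and the erythroid genes *Hba-a1* and *Ahsp*, were not analysed here.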

Additional observations from a re-analysis of the deposited data

Results flagged for a closer look

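*Car2* and *Car3* had log2 ratios of Loaded over Control whose sign differed between tissue classes, each comparing 1 section with another. For *Car2*, bone spots (0.47) and muscle-rich spots (0.28) were higher in Loaded, and marrow-rich spots (-0.67) and other spots (-0.46) were lower. For *Car3*, marrow-rich spots were higher in Loaded (0.22), and bone (-1.18), muscle-rich (-0.36) and other spots (-0.75) were lower. The difference between the classes was not tested in either gene, since there is 1 section per group. The muscle-rich value of *Car2* and the bone and marrow-rich values of *Car3* each changed sign under an alternative given with the processing, and the values of both genes in other spots depended on the class limits.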

How the results depend on the processing

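Counting error is the sole error that these data allow to be stated, and the ratios of *Car1*, *Car4*, *Car8*, *Car9* and *Car14* rest on few UMIs. No paired analysis was possible because each group has 1 section. Under the alternatives, 278 values of single genes stayed within counting error of the reported value, 53 moved beyond it, and 3 whose interval excluded 0 changed sign. Among the 278 and 53, 16 changed sign where the reported interval already included 0. The 3 were *Car3* in bone spots with little muscle, below 5% of UMIs (0.67), *Car2* in muscle-rich spots with scran size factors over all spots (-0.15), and *Car3* in marrow-rich spots with a muscle limit of 5% (-0.44). The number of genes at least 2-fold higher in Loaded bone was 2 in those spots with little muscle and 2 with no minimum of UMIs, against 1. The number at least 2-fold lower was 0 in spots with little muscle and 1 with a minimum of 30 UMIs, against 2. With the muscle limit at 5%, 1 gene (*Car14*) was highest in muscle-rich spots of both sections, against 3, and *Car1* in muscle-rich spots was at 1.04, against -0.24. *Car8* was highest in muscle-rich spots of Loaded with that limit and with a marrow limit of 10%. The number highest in marrow-rich spots of both sections was 4 with the former, *Car4* taking the place of *Car8*, and 3 with the latter, against 4. In bone ranked by erythroid share, *Car2* in Control differed by log2 1.42 with spots split at the median, against 2.15, and *Car12* in Loaded by -2.12 by muscle share, against -4.82. Scaling by library totals instead of scran moved all log2 ratios in bone by 0.12. In muscle-rich spots, scran size factors over all spots gave lower log2 ratios than totals. That of *Car3* went from -0.36 to -0.79, that of *Car8* from 1.81 to 1.38 and that of *Car9* from -0.83 to -1.26. The log2 value of *Car12* was 2.58 in bone spots with little muscle. There, 22 UMIs in 25 Loaded spots stood against 0 in 16 Control spots, so that the value is set by the few Control spots.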

Other observations

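The other 8 carbonic anhydrase genes were sparse in these sections. In bone, 2 of them had at least 10 UMIs, *Car5b*, a mitochondrial form, with 6 in Control and 4 in Loaded, and *Car11*, a relative without catalytic activity, with 17 and 11. Neither was 2-fold apart (log2 -0.26 and -0.30, with intervals that include 0). In muscle-rich spots, *Car11* had 111 UMIs in Control and 84 in Loaded, a level of 0.160 and 0.282 per 10000 UMIs (log2 0.82, 0.39 to 1.24), and *Car13*, a cytosolic form beside *Car1*, had 17 and 16 (log2 1.14, 0.05 to 2.21). These muscle-rich ratios are scaled by total UMIs. With scran size factors over all spots, the muscle-rich ratio of *Car2* fell from 0.28 to -0.15. The same drop would take the lower limits of *Car11* and *Car13* below 0. *Car10* had no UMI in either bone region.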
